A study of Homo sapiens with 48 samples.

Results

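Aminoacyl-tRNA synthetases are the enzymes that join each amino acid to its transfer RNA, and the 38 genes described here encode the human set. They were picked by name from the 19923 protein-coding gene names counted: 1 letter followed by ARS and an optional 1, 2 or 3, together with EPRS1, FARSA and FARSB. The names put 21 of them with the cytosolic enzymes and 17, whose names end in 2, with the mitochondrial ones. All 38 passed the filter on low counts in both cell lines. Kelly and NGP are human neuroblastoma lines, both MYCN-amplified and of WT genotype per the labels. Each line received 8 µM STM2457, which blocks METTL3, the enzyme that writes the m6A mark on mRNA, or the solvent DMSO, during 3 or 6 days. Actinomycin D, a blocker of transcription, was then present at 10 µg/ml during 0, 3 or 6 h, and poly(A) RNA was sequenced from 2 libraries of each of the 24 combinations. The labels do not say whether the 2 libraries of a group came from separate cultures, so p-values measure only the spread between libraries, which may be technical.

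Charged tRNAs are the substrate of the ribosome, and each cytosolic synthetase serves 1 amino acid except EPRS1, which joins both glutamate and proline. Several cytosolic enzymes (EPRS1, LARS1, IARS1, MARS1, QARS1, RARS1 and KARS1 among them) are held together in the multisynthetase complex, while a separate set encoded in the nucleus is imported into mitochondria. The genes KARS1 and GARS1 each give a cytosolic and a mitochondrial form and are counted here with the cytosolic enzymes. Many cytosolic synthetase genes are known targets of ATF4, the transcription factor raised when amino acids run short, which binds composite C/EBP-ATF sites in promoters.

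The Kelly libraries held 13807701 to 19774227 counted fragments each and those of NGP 11139550 to 21942238, and the 38 synthetase genes together took 0.456 to 0.768% of them. Of 10 neuroblastoma markers, 10 in Kelly and 9 in NGP had a median over 10 CPM (counts per 1000000 fragments, on TMM-scaled library sizes). Of 8 immune and epithelial markers none did in either line, and of 8 fibroblast or mesenchymal markers 1 did in Kelly and 3 in NGP, where the highest median was 166 CPM. The NGP libraries in DMSO for 6 days stood apart at 0 and 3 h. Summed over the tested genes of a list of 20 amino acid response genes, such as ASNS and SLC7A5, they held 4301 and 4478 CPM at 0 h and 3841 and 3927 CPM at 3 h. The other 20 NGP libraries held 1592 to 2252 CPM, the 6 h libraries of the same treatment and duration included. What set these 4 libraries apart was not tested. The counts of genes and lists that rest on them are given a second time with the NGP libraries in DMSO for 3 days in their place.

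In DMSO at 3 days and 0 h, before transcription was blocked, cytosolic synthetase mRNAs stood above mitochondrial ones. The median level per kilobase of exon was 33.4 CPM for the cytosolic and 10.1 CPM for the mitochondrial genes in Kelly, and 37.2 and 9.06 CPM in NGP. EPRS1 was highest in both lines, at 134 ± 1.92 CPM per kilobase in Kelly (SD, n = 2) and 81.9 ± 0.547 in NGP. It was followed by GARS1 (glycine, 108 ± 0.138) and SARS1 (serine, 87.9 ± 1.14) in Kelly. In NGP the next were LARS1 (leucine, 70.0 ± 2.93) and GARS1 (65.2 ± 4.99), and those neighbours lay within their spread. IARS2, the mitochondrial isoleucine enzyme, was the highest mitochondrial gene in both lines (42.8 ± 1.74 and 32.5 ± 1.72 CPM per kilobase). The lowest genes were TARS3, a threonine enzyme, in Kelly (0.390 ± 0.136) and LARS2, the mitochondrial leucine enzyme, in NGP (1.39 ± 0.152).

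**Figure D1:**
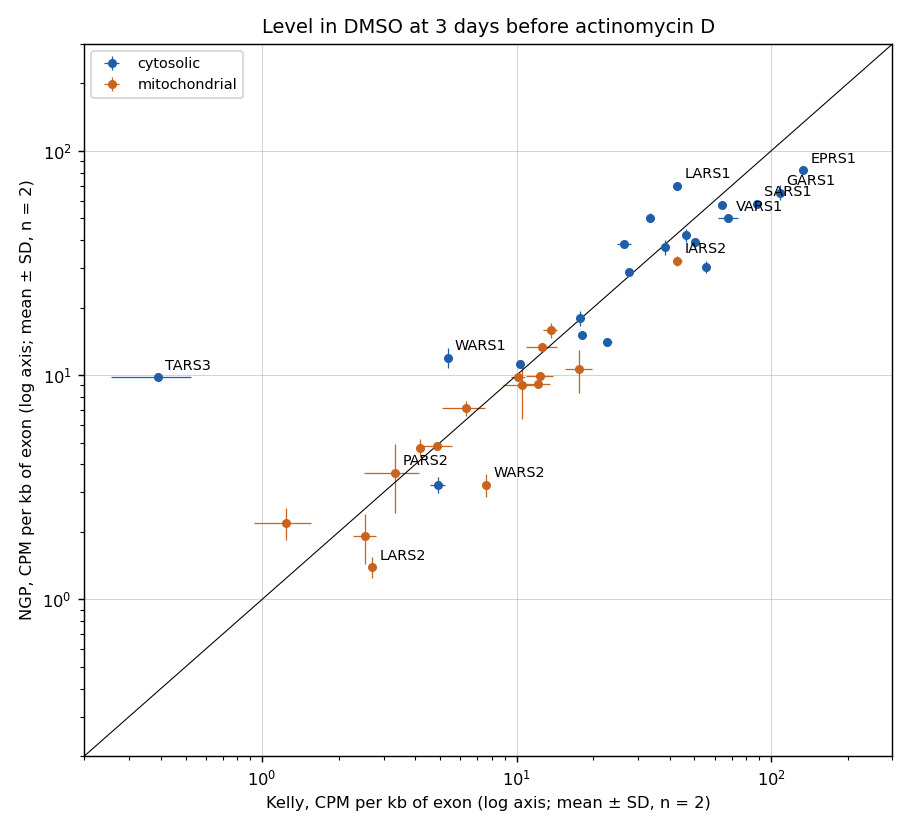
Level of 36 of the 38 synthetase genes in DMSO at 3 days and 0 h, in CPM per kilobase of exon on log axes, Kelly (x) against NGP (y). Points are means of 2 libraries, bars are SDs, and colours separate cytosolic from mitochondrial genes. EPRS1 sits at the top right with 134 and 81.9, and TARS3 lies far above the diagonal.

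Between the lines, 6 synthetase genes were higher and 11 lower in NGP than in Kelly at 3 days in DMSO, in a joint edgeR fit that called 14.0% of all genes higher and 16.0% lower. TARS3 differed most: it had 2.16 and 1.31 CPM in Kelly and 43.9 and 43.1 CPM in NGP, a log2 difference of 4.67. WARS1 (tryptophan), LARS1, IARS1 and MARS1 were also higher, with log2 differences of 0.58 to 1.20. The largest decreases among the 11 were those of the mitochondrial genes WARS2, at -1.18, and LARS2, at -0.92. Under scaling to the ERCC spike-ins, synthetic RNAs added to the samples, the median of all genes moved by 0.27, and 14 of the 17 kept their sign. All 17 kept it against that median. That is no separate check, since this scaling shifts all genes of a comparison nearly alike. Under that scaling 22 synthetase genes were called, 18 higher and 4 lower in NGP.

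Relative to the typical gene, part of the cytosolic synthetase mRNAs were lower in STM2457 at 0 h in each line and duration, and no mitochondrial one was called lower. In Kelly, 5 genes were lower at 3 days and 6 at 6 days, all cytosolic, where the edgeR test called 1.1% and 1.26% of all genes lower. In NGP, 6 cytosolic genes were lower at 3 days and 13 at 6 days, where it called 2.45% and 3.55% of all genes lower. Leaving out 1 library at a time, 3 to 4 and 3 to 5 synthetase genes were called in Kelly at 3 and 6 days. Such fits called 1 to 3 in NGP at 3 days and 13 to 14 at 6 days. The only synthetase gene called higher was the mitochondrial valine gene VARS2, in NGP at 6 days, where 4.45% of all genes were, beside 1.25% in NGP at 3 days and 0.585% and 2.7% in Kelly. The median log2 change of the 21 cytosolic genes was -0.25 and -0.16 in Kelly and -0.19 and -0.61 in NGP, at 3 and 6 days. For the 17 mitochondrial genes it was 0.07 and -0.14 in Kelly and -0.04 and 0.07 in NGP, and for all genes tested it lay between 0 and 0.02. Under TMM scaling the typical gene is the zero point of these changes. Under ERCC scaling the median of all genes moved to 0.38 and -0.21 in Kelly and 0.10 and -0.02 in NGP. Every called gene kept its sign against that median, which a shift shared by all genes nearly fixes in advance. Without that reference point the Kelly result at 3 days did not hold under ERCC scaling: 11 synthetase genes were then called higher and 0 lower, and 2 of the 5 kept their sign. That scaling called 1 gene lower for NGP at 3 days and 14 for Kelly at 6 days.

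**Figure D2:**
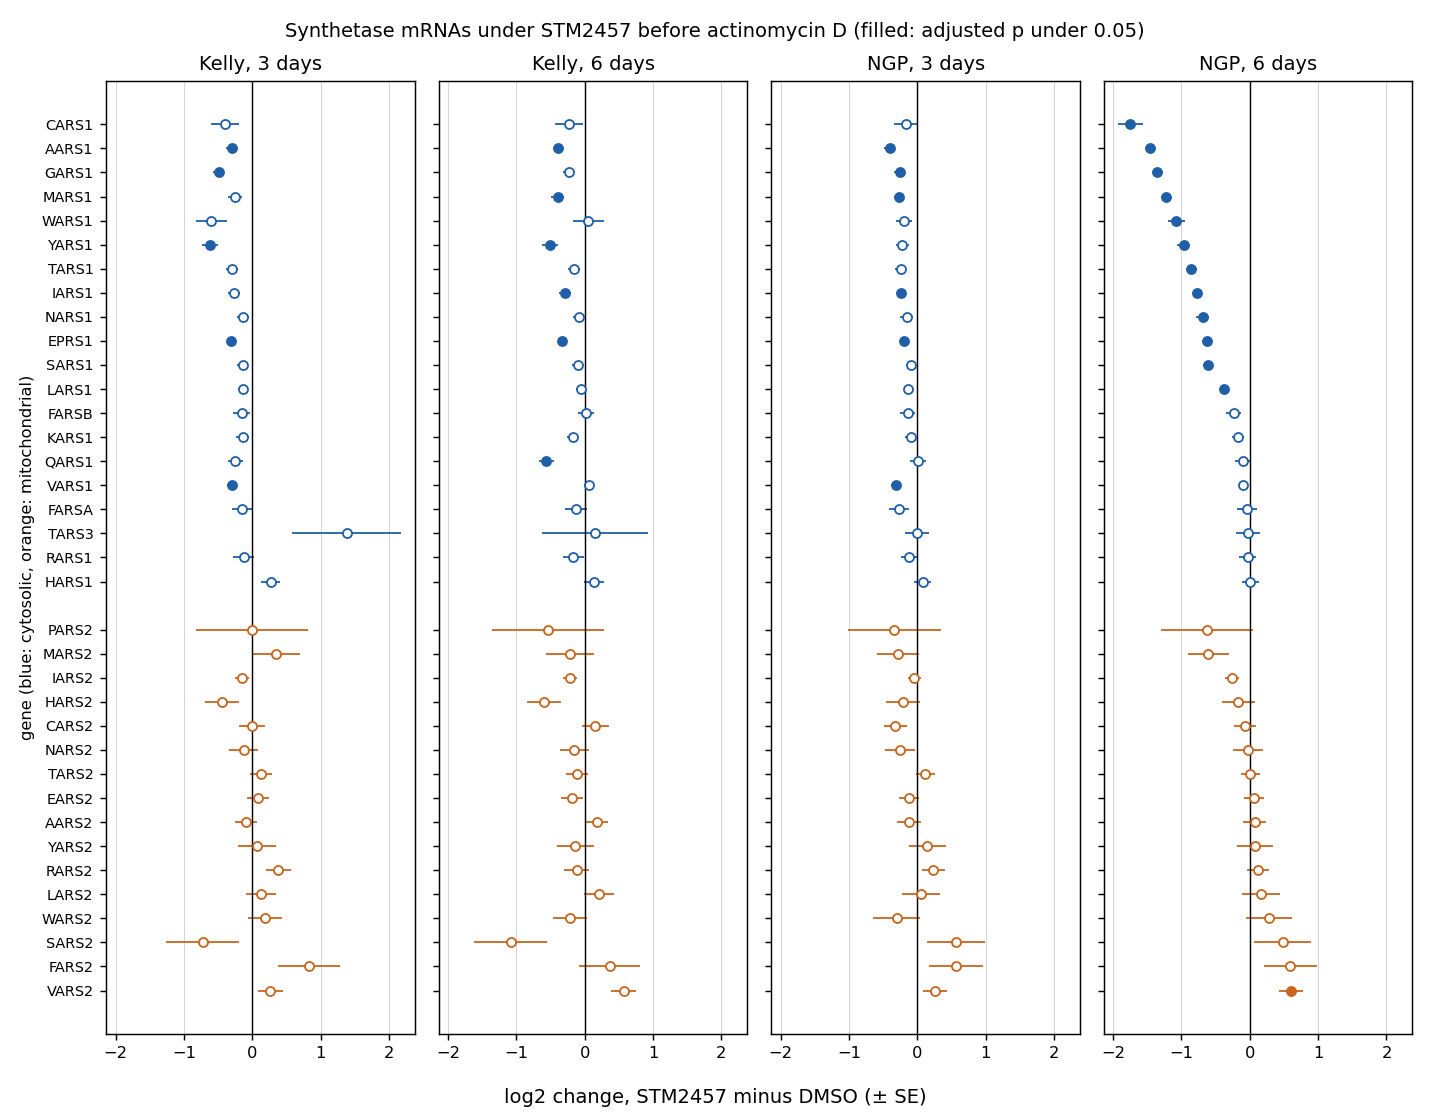
Log2 change at 0 h, STM2457 minus DMSO, of 36 synthetase genes in Kelly and NGP at 3 and 6 days, with bars of 1 SE from the edgeR fit. Filled points have an adjusted p under 0.05, and colours separate cytosolic from mitochondrial genes. The 12 filled points left of 0 in NGP at 6 days reach -1.75, while filled points in the other panels lie between -0.62 and -0.20. Under ERCC scaling EPRS1, VARS1 and AARS1 change sign in Kelly at 3 days.

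AARS1 (alanine, chr16:70252295-70289543, minus strand, GRCh38) and EPRS1 (chr1:219968600-220046530, minus strand) were lower in all 4 comparisons. AARS1 had 289 and 291 CPM in DMSO and 233 and 239 CPM in STM2457 in Kelly at 3 days, and 340 and 329 against 263 and 250 CPM at 6 days. In NGP it had 263 and 255 against 195 and 196 CPM at 3 days, and 433 and 503 against 174 and 167 CPM at 6 days. Both STM2457 libraries lay below both DMSO libraries each time. The log2 changes were -0.30 ± 0.09 (SE, adjusted p = 0.0439) and -0.38 ± 0.09 (adjusted p = 0.000907) in Kelly, and -0.41 ± 0.08 (adjusted p = 0.000649) and -1.46 ± 0.09 (adjusted p = 1.61e-24) in NGP. Under ERCC scaling the Kelly value at 3 days was 0.10, and its call was lost whichever of the 4 libraries was left out (-0.31 to -0.28).

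EPRS1 had 721 and 707 CPM in DMSO and 580 and 576 CPM in STM2457 in Kelly at 3 days, and 695 and 729 against 561 and 569 CPM at 6 days. In NGP it had 434 and 438 against 386 and 374 CPM at 3 days, and 675 and 626 against 413 and 427 CPM at 6 days. The groups did not overlap in any of the 4 comparisons. The log2 changes were -0.31 ± 0.06 (adjusted p = 0.000313) and -0.33 ± 0.06 (adjusted p = 1.8e-05) in Kelly, and -0.20 ± 0.06 (adjusted p = 0.0449) and -0.63 ± 0.06 (adjusted p = 5.86e-14) in NGP. Under ERCC scaling the Kelly value at 3 days was 0.09, and the NGP call at 3 days was lost whichever of the 4 libraries was left out (-0.22 to -0.18).

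GARS1 (chr7:30594838-30634033, plus strand) was lower in 3 comparisons. It had 431 and 432 CPM in DMSO against 301 and 312 CPM in STM2457 in Kelly at 3 days, and 389 and 405 against 329 and 344 CPM at 6 days. In NGP it had 274 and 246 against 212 and 223 CPM at 3 days, and 536 and 578 against 221 and 216 CPM at 6 days. The groups stayed apart in all 4, but the Kelly change at 6 days missed the threshold at -0.24 ± 0.08 (adjusted p = 0.0548). The called log2 changes were -0.49 ± 0.08 (adjusted p = 5.48e-07) in Kelly at 3 days, and -0.26 ± 0.08 (adjusted p = 0.0375) and -1.35 ± 0.08 (adjusted p = 6.52e-25) in NGP. The NGP call at 3 days was lost in 3 of 4 fits without 1 library (-0.33 to -0.18).

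MARS1 (methionine, chr12:57475445-57517569, plus strand) was called lower at both durations in NGP and after 6 days in Kelly. In Kelly it had 178 and 195 CPM in DMSO against 162 and 151 CPM in STM2457 at 3 days, and 181 and 193 against 146 and 138 CPM at 6 days. In NGP it had 268 and 270 against 233 and 214 CPM at 3 days, and 451 and 499 against 193 and 214 CPM at 6 days. No groups overlapped. The log2 changes were -0.25 ± 0.10 (adjusted p = 0.27) and -0.40 ± 0.10 (adjusted p = 0.00301) in Kelly, and -0.27 ± 0.08 (adjusted p = 0.0272) and -1.22 ± 0.08 (adjusted p = 7.28e-23) in NGP. Without 1 library its call was lost in 2 of 4 fits in Kelly at 6 days (-0.46 to -0.35) and in 4 of 4 in NGP at 3 days (-0.33 to -0.21). Exons of the opposite-strand genes ARHGAP9 and DDIT3 cover 12.4% of its exon bases, and the headers name no strand option. DDIT3 had 51.6 and 47.2 CPM in the NGP libraries in DMSO for 6 days and 5.28 and 7.81 CPM in those in STM2457, where MARS1 itself had 193 to 499 CPM; the part of those reads in the MARS1 values was not tested.

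IARS1 (isoleucine, chr9:92210207-92293756, minus strand) had 253 and 241 CPM in DMSO against 205 and 206 CPM in STM2457 in Kelly at 3 days, and 250 and 261 against 211 and 208 CPM at 6 days. In NGP it had 361 and 386 against 335 and 297 CPM at 3 days, and 543 and 480 against 280 and 319 CPM at 6 days. Its libraries were lower in STM2457 in all 4 comparisons and the test called 3 of them. The called log2 changes were -0.29 ± 0.09 (adjusted p = 0.0371) in Kelly at 6 days, and -0.24 ± 0.07 (adjusted p = 0.0356) and -0.77 ± 0.07 (adjusted p = 1.24e-14) in NGP. Without 1 library the call was lost in 4 of 4 fits in Kelly at 6 days (-0.32 to -0.26) and in 3 of 4 in NGP at 3 days (-0.33 to -0.16).

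YARS1 (tyrosine, chr1:32775237-32818153, minus strand) had 149 and 142 CPM in DMSO against 88.5 and 100 CPM in STM2457 in Kelly at 3 days, the largest called drop in that comparison, and 148 and 174 against 106 and 120 CPM at 6 days. In NGP it had 140 and 156 against 130 and 125 CPM at 3 days, and 252 and 220 against 120 and 122 CPM at 6 days. No groups overlapped. The log2 changes were -0.62 ± 0.12 (adjusted p = 6.85e-05) and -0.51 ± 0.12 (adjusted p = 0.00105) in Kelly, and -0.22 ± 0.10 (adjusted p = 0.265) and -0.96 ± 0.10 (adjusted p = 2.72e-13) in NGP. The Kelly call at 6 days was lost in 2 of 4 fits without 1 library (-0.63 to -0.39).

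VARS1 (valine, chr6:31777518-31795752, minus strand) was lower at 3 days in both lines and at 6 days in neither. At 3 days it had 373 and 425 CPM in DMSO against 308 and 341 CPM in STM2457 in Kelly, and 302 and 287 against 245 and 230 CPM in NGP. At 6 days it had 366 and 355 against 391 and 362 CPM in Kelly and 280 and 309 against 269 and 283 CPM in NGP, where the groups overlapped in both lines. The log2 changes were -0.30 ± 0.07 (adjusted p = 0.00697, and 0.10 under ERCC scaling) in Kelly and -0.31 ± 0.07 (adjusted p = 0.0018) in NGP at 3 days, and 0.06 ± 0.07 (adjusted p = 0.888) and -0.09 ± 0.07 (adjusted p = 0.558) at 6 days. Both calls at 3 days were lost in 2 of 4 fits without 1 library (-0.39 to -0.20 in Kelly and -0.36 to -0.27 in NGP). QARS1 (glutamine) was lower in Kelly at 6 days alone of the 4, by -0.56 ± 0.11 (adjusted p = 0.0001), where DMSO had 139 and 143 CPM and STM2457 92.0 and 98.8 CPM. Its DMSO level in Kelly was itself higher at 6 than at 3 days, by 0.40 (adjusted p = 0.00795).

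The remaining genes named here were lower in NGP at 6 days only. CARS1 (cysteine, chr11:3000922-3057613, minus strand) had 80.9 and 84.2 CPM in DMSO against 25.4 and 23.7 CPM in STM2457, a log2 change of -1.75 ± 0.18 (adjusted p = 2.3e-12), the largest among the 38 genes. WARS1 (chr14:100333790-100376805, minus strand) had 135 and 118 against 56.8 and 63.3 CPM, a change of -1.08 ± 0.12 (adjusted p = 3.25e-11). TARS1 (threonine, chr5:33440696-33469539, plus strand) had 357 and 331 against 192 and 188 CPM, a change of -0.86 ± 0.08 (adjusted p = 7.75e-14). In each of these the lower DMSO library stood above the higher STM2457 library by more than the 2 libraries of either group differed.

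NARS1 (asparagine, chr18:57600656-57622213, minus strand) had 204 and 194 CPM in DMSO for 6 days against 123 and 124 CPM in STM2457 in NGP, a log2 change of -0.69 ± 0.09 (adjusted p = 1.73e-08). SARS1 (chr1:109213918-109238182, plus strand) had 327 and 350 against 225 and 218 CPM, a change of -0.61 ± 0.08 (adjusted p = 3.57e-09). LARS1 was lower by -0.38 ± 0.06 (adjusted p = 1.4e-07). In the other 3 comparisons these 6 genes had log2 changes of -0.60 (WARS1, Kelly at 3 days) to 0.05 (WARS1, Kelly at 6 days), none past the threshold.

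By role, 5 of the 8 cytosolic genes of the multisynthetase complex and 8 of the 13 outside it were lower in NGP at 6 days, with median changes of -0.43 and -0.69. By structural class, 7 of 10 class I and 6 of 11 class II cytosolic genes were lower, with medians of -0.70 and -0.49. EPRS1, which joins both glutamate and proline, was counted in class I only. Against DMSO of 3 days these counts were 2 of 8 in the complex and 2 of 13 outside it (medians -0.13 and -0.24), and 2 of 10 and 2 of 11 by class (medians -0.22 and -0.10). The 8 cytosolic genes that missed the threshold in NGP at 6 days (FARSB, KARS1, QARS1, VARS1, FARSA, TARS3, RARS1 and HARS1) had log2 changes of -0.23 to 0.01. Among them are both subunits of the phenylalanine enzyme.

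No mitochondrial gene was called lower. VARS2 had 38.0 and 25.2 CPM in DMSO and 43.4 and 52.7 CPM in STM2457 in NGP at 6 days, a log2 change of 0.60 ± 0.17 (adjusted p = 0.015), and it was just outside the threshold in Kelly at 6 days at 0.57 ± 0.18 (adjusted p = 0.0553). Leaving out 1 library at a time gave NGP changes of 0.34 to 0.93, and the call was lost in 2 of 4 such fits. The other 16 mitochondrial genes lay between -0.63 and 0.59 in that comparison. Both STM2457 libraries lay below both DMSO libraries for 19, 14, 18 and 16 of the 21 cytosolic genes in Kelly at 3 and 6 days and in NGP at 3 and 6 days, against 3, 7, 4 and 3 of the 17 mitochondrial genes and 19.0%, 18.8%, 23.0% and 22.4% of all genes tested. They lay above for 1, 1, 1 and 0 cytosolic and 6, 3, 3 and 4 mitochondrial genes, and for 20.1%, 23.5%, 22.6% and 25.6% of all genes. With DMSO of 3 days as the control of NGP at 6 days, 15 cytosolic genes lay below and 1 above, and 4 and 6 mitochondrial genes, beside 22.3% and 25.0% of all genes. The edgeR calls in either direction covered 1.69%, 3.97%, 3.7% and 7.99% of all genes in those comparisons.

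Much of the NGP difference at 6 days lay in the DMSO libraries. In DMSO, 14 synthetase genes were higher at 6 than at 3 days and none lower in NGP at 0 h, all 14 cytosolic, where 5.37% of all genes were higher and 6.72% lower. CARS1 rose by 1.34 ± 0.18 on the log2 scale (adjusted p = 7.97e-09), GARS1 by 1.10 ± 0.08 (adjusted p = 2.25e-20), AARS1 by 0.85 ± 0.08 (adjusted p = 1.23e-13) and MARS1 by 0.82 ± 0.08 (adjusted p = 1.08e-14). In STM2457 in NGP, QARS1 (0.49 ± 0.11, adjusted p = 0.00125) and VARS1 (0.22 ± 0.07, adjusted p = 0.0468, and -0.10 under ERCC scaling) were the 2 genes higher at 6 days, beside 3.17% of all genes. Under ERCC scaling, where the median of all genes in that difference moved to -0.30, 16 synthetase genes were called lower and 0 higher. In Kelly, QARS1 was higher and AARS2 lower at 6 days in DMSO, and HARS1 was lower in STM2457, where 2.78% of all genes were higher and 5.73% lower in DMSO, and 1.19% lower in STM2457. Without 1 library these calls of VARS1, QARS1 in Kelly, AARS2 and HARS1 were lost in 4, 2, 3 and 4 of 4 fits. The cytosolic genes summed to 4067 and 4098 CPM in NGP DMSO libraries of 3 days and to 5797 and 5858 CPM at 6 days, against 3580 and 3654 CPM in STM2457 at 6 days. The 17 mitochondrial genes summed to 679 and 724, 669 and 689, and 669 and 700 CPM in the same 3 groups.

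**Figure D3:**
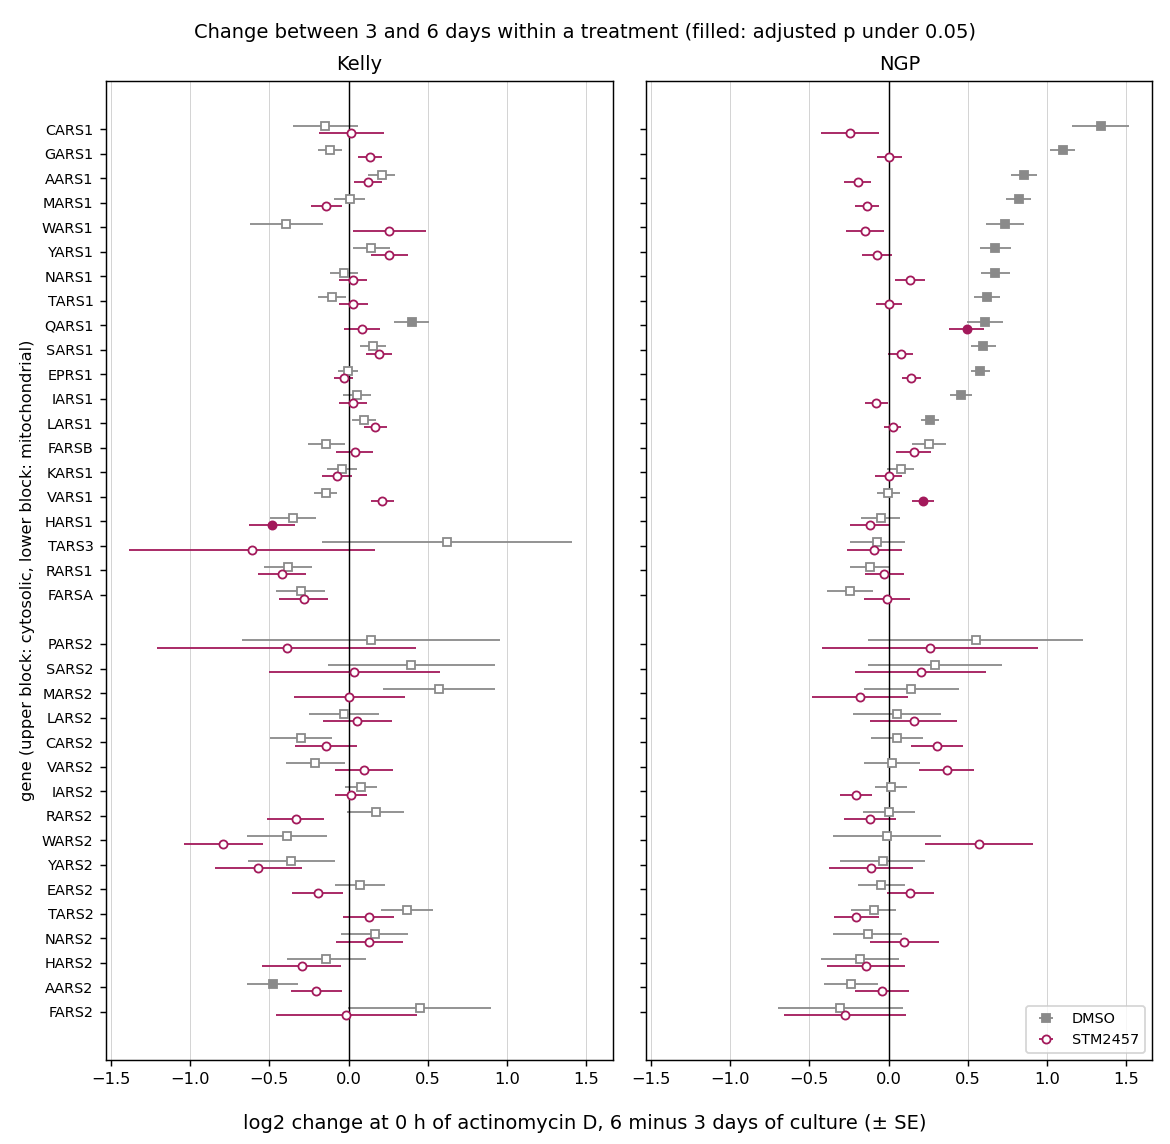
Log2 difference at 0 h between 6 and 3 days within DMSO and within STM2457, for 36 synthetase genes in Kelly and NGP, with bars of 1 SE and filled points for an adjusted p under 0.05. In NGP the filled DMSO points of 13 cytosolic genes lie right of 0, up to 1.34 for CARS1, while the mitochondrial genes show no call in either treatment there.

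With the NGP DMSO libraries of 3 days as the control of STM2457 at 6 days, 4 genes were lower, where 2.94% of all genes were, and 2 were higher, where 2.13% were. AARS1 was lower by -0.60 ± 0.08 (adjusted p = 1.45e-07), MARS1 by -0.40 ± 0.08 (adjusted p = 0.000115), IARS1 by -0.32 ± 0.07 (adjusted p = 0.00144) and GARS1 by -0.25 ± 0.08 (adjusted p = 0.0339). The other 9 genes lower against DMSO of 6 days had changes of -0.41 (CARS1, adjusted p = 0.251) to -0.01 (SARS1, adjusted p = 0.979). QARS1 (0.51 ± 0.11, adjusted p = 0.0012) and VARS2 (0.62 ± 0.17, adjusted p = 0.0186) were higher. The same substitution in Kelly gave 5 genes lower, beside 2.68% of all genes: EPRS1, GARS1, MARS1, RARS1 (arginine) and YARS1, at -0.34 to -0.55. Of these, GARS1 (adjusted p = 0.0548) and RARS1 (adjusted p = 0.792) had not been called against DMSO of 6 days. AARS1 (-0.18, adjusted p = 0.349), QARS1 (-0.16, adjusted p = 0.62) and IARS1 (-0.24, adjusted p = 0.125), called there, were not called with DMSO of 3 days. These comparisons share the STM2457 libraries with those above.

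The STM2457 effect at 0 h was more negative at 6 than at 3 days for 11 cytosolic genes in NGP, where the test of that difference called 1.04% of all genes lower. GARS1 had the smallest adjusted p, at -1.09 ± 0.11 (adjusted p = 1.82e-12), and CARS1 had the largest difference at -1.58 ± 0.26 (adjusted p = 5.23e-06). These differences rest on the DMSO libraries that stood apart. With DMSO of 3 days at both durations, only the STM2457 libraries of 6 and 3 days are compared. There the 2 genes called on the TMM scale were QARS1 and VARS1, both higher at 6 days. In Kelly none of the 38 passed the test between durations, beside 0.788% of all genes, and 5 had an unadjusted p under 0.05. DESeq2 called 2 higher there, and VARS1 came nearest at 0.36 ± 0.10 (adjusted p = 0.0649). Under ERCC scaling, where the median of all genes in that difference moved to -0.62, 24 were called lower. Between the lines, 9 genes had a more negative effect in NGP than in Kelly at 6 days, beside 1.06% of all genes, of which GARS1 had the smallest adjusted p, at -1.10 ± 0.10 (adjusted p = 2.01e-12). Without 1 library, IARS1 and WARS1 lost that call in 3 and 2 of 8 fits (-0.57 to -0.39 and -1.59 to -0.43). At 3 days none passed with edgeR or DESeq2, beside 0.161% of all genes, 1 passed under ERCC scaling, and 3 had an unadjusted p under 0.05. With DMSO of 3 days as control, none of the 9 kept its call: GARS1 was at 0.12 ± 0.10 (adjusted p = 0.936) and AARS1, the farthest from 0, at -0.40 ± 0.12 (adjusted p = 0.107). EPRS1 (0.30, adjusted p = 0.0412) and QARS1 (0.69, adjusted p = 0.00751) then had a more positive effect in NGP, where 0.709% of all genes did and 0.49% had a more negative one.

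Partners of the synthetases were read in the same comparisons. Of 11 tested genes for cytosolic charging and delivery of tRNA, 1 was lower in Kelly at 3 days (1.1% of all genes were), 1 lower and 1 higher in Kelly at 6 days (1.26% and 2.7%), 2 lower in NGP at 3 days (2.45%) and 1 lower in NGP at 6 days (3.55%). With DMSO of 3 days as the control of NGP at 6 days, 1 was lower (2.94%) and 1 higher (2.13%). XPOT, which exports tRNA from the nucleus, had 394 and 342 CPM in DMSO and 200 and 192 CPM in STM2457 in NGP at 6 days, a change of -0.91 ± 0.08 (adjusted p = 6.74e-16), or -0.31 ± 0.08 (adjusted p = 0.00654) against DMSO of 3 days. At 3 days its change was -0.30 ± 0.08 (adjusted p = 0.0141). EEF1A1, which carries charged tRNA to the ribosome, was lower by -0.25 ± 0.03 in Kelly at 6 days (adjusted p = 7.43e-10), and EEF1B2, a subunit of its exchange factor, was higher by 0.30 ± 0.07 (adjusted p = 0.000717). EEF1D, another subunit of that factor, was lower at 3 days, by -0.28 in Kelly and -0.34 in NGP. Of 10 mitochondrial charging and elongation genes, only MTIF2 (-0.52, adjusted p = 0.0468) and TUFM (0.21, adjusted p = 0.0452) were called, both in NGP at 6 days, and neither with DMSO of 3 days as control (-0.27, adjusted p = 0.55, and 0.08, adjusted p = 0.663).

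The amino acid response genes, a list written after earlier results of these libraries were seen and so no independent evidence, moved in the same libraries. Of 19 tested, 6 and 4 were lower in STM2457 in Kelly (3 and 6 days), and 4 and 18 in NGP, where 1.1%, 1.26%, 2.45% and 3.55% of all genes were. Their median change was -0.37 and -0.38 in Kelly and -0.20 and -1.88 in NGP. With DMSO of 3 days as the control of NGP at 6 days, 7 were lower, where 2.94% of all genes were, with a median of -0.28. In NGP in DMSO all 19 were higher at 6 than at 3 days, where 5.37% of all genes were, with a median of 1.49. ASNS, which makes asparagine, had 283 and 266 CPM in NGP DMSO libraries of 6 days against 94.1 and 87.9 CPM in those of 3 days and 78.2 and 71.3 CPM in STM2457 at 6 days. SLC7A5, an importer of large neutral amino acids, had 444 and 475 CPM against 159 and 169 CPM and 129 and 113 CPM, and the NGP changes of SLC7A5, ATF5, ASNS and PSAT1 under STM2457 at 6 days were -1.92, -5.07, -1.88 and -1.59, and -0.44, -1.67, -0.28 and -0.11 against DMSO of 3 days, the last 2 not called. The part of this response in the synthetase differences was not tested.

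Since cytosolic genes moved together in NGP, their promoters were read for the composite C/EBP-ATF motif TGATGNAA on both strands, in windows from 250 bases before to 50 after each start (RefSeq, GRCh38.p14). The motif was chosen after these values were known. Windows were found for 30 of the 38 genes: 16 cytosolic and 14 mitochondrial. Of the 16, 7 held a match, and of the 14, 1 did, beside 3.62% of all 35116 windows and 4.46% of 27305 genes. The 7 were all among the 13 genes lower in NGP at 6 days, as were 3 of the 9 cytosolic genes without a match. Against DMSO of 3 days, 4 of the 7 and 0 of the 9 were lower. The 8 matches are shown as the letters behind these counts, each 5′ to 3′ on the strand of the gene, with the match in capitals:
TARS1, chr5:33440953-33440982, plus strand: agggcgcctttcgaTTGCATCAgctggtcc
GARS1, chr7:30594831-30594860, plus strand: cgtttacgcggcgaTTTCATCAtgctccga
IARS1, chr9:92293695-92293724, minus strand: gcattttcagcgcgTTGCATCAcctccgtg
CARS1, chr11:3057410-3057439, minus strand: ttccggggcggcggTTGCATCAgattctag
MARS1, chr12:57488050-57488079, plus strand: gaggccggttccggTTGCATCAgcgaggga
AARS1, chr16:70289678-70289707, minus strand: accttttctcgcagTTGCATCAgccaagtt
NARS1, chr18:57621807-57621836, minus strand: agatctacgctctcTGATGCAAcgccggaa
YARS2, chr12:32756079-32756108, minus strand: cagatccacactgcTGATGGAAaaattaag

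In NARS1 and YARS2 the match reads as the motif is written, and in the other 6 as its reverse complement. Its first base lay -33, -13, -4, -2, 3 and 15 bases from the start in GARS1, IARS1, MARS1, CARS1, TARS1 and NARS1, and -187 and -197 bases from it in AARS1 and YARS2. The E-box CACGTG, the core motif of MYC-family proteins, was found in 4 of the 30 (MARS2, IARS1, CARS2 and EARS2) beside 8.77% of all genes, and the cAMP-response motif TGACGTCA in none beside 2.25%. In IARS1 the E-box did not overlap the composite motif. A match in these letters is a description of the window and shows no binding.

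With transcription blocked, more cytosolic synthetase mRNAs were called higher than lower, relative to the typical gene, in every line, treatment and duration except NGP in DMSO for 6 days. From 0 h to 6 h in DMSO, relative to the typical gene, 13 synthetase genes of both compartments were higher and 6 lower in Kelly at 3 days. There edgeR called 14.5% of all genes higher and 15.6% lower. In Kelly at 6 days 12 were higher and 6 lower, beside 13.2% and 13.3%, and in NGP at 3 days 21 and 5, beside 19.0% and 18.4%. In NGP at 6 days, which rests on the libraries that stood apart, 6 were higher and 15 lower, beside 18.0% and 18.7%. In STM2457, 11 were higher and 6 lower in Kelly at 3 days (12.8% and 14.0% of all genes) and 9 and 3 at 6 days (12.4% and 14.0%). In NGP in STM2457 the counts were 14 and 5 at 3 days (16.6% and 15.9%) and 10 and 4 at 6 days (15.7% and 16.4%). In the same order, mitochondrial genes made up 3, 2, 5 and 1 of those higher in DMSO and 4, 4, 4 and 4 of those lower. In STM2457 they made up 3, 2, 2 and 2 of those higher and 4, 1, 3 and 2 of those lower. The median change of the cytosolic genes in DMSO was 0.39, 0.37, 0.50 and -0.19, and in STM2457 0.24, 0.17, 0.23 and 0.21. For the mitochondrial genes it was 0.08, 0.07, 0.14 and 0.09 in DMSO, and 0.17, 0.20, 0.10 and -0.05 in STM2457. Under ERCC scaling the median of all genes fell, to between -1.18 and -0.34 in DMSO and -0.72 and -0.45 in STM2457. The synthetase genes called lower then numbered 12 to 37 and those higher 0 to 4, so a gene higher on the TMM scale is mostly one with a smaller loss. Every gene called under TMM kept its sign against that median, which is no separate check, as the shift is shared by all genes.

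**Figure D4:**
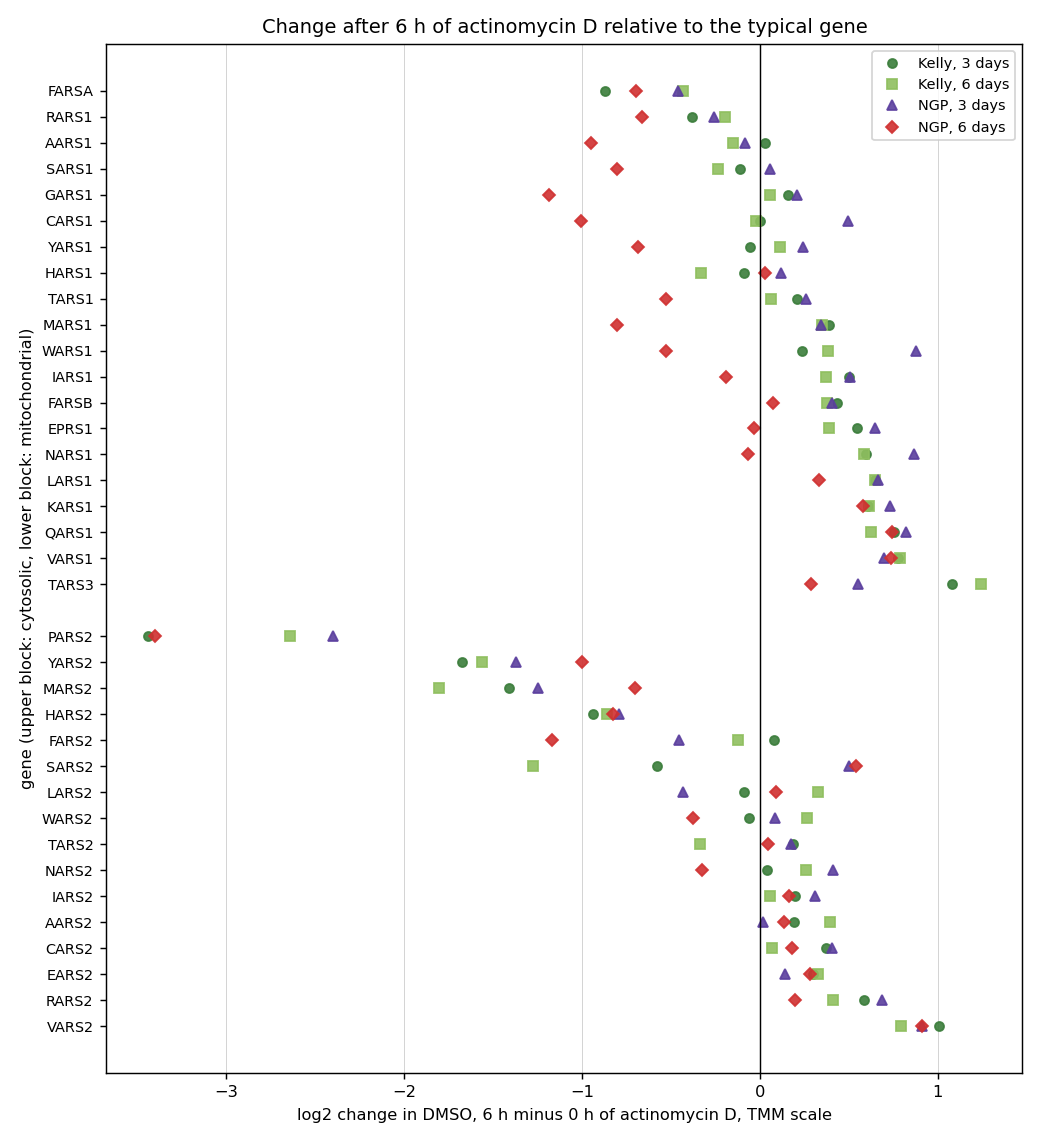
Log2 change of 36 synthetase genes in DMSO after 6 h of actinomycin D against 0 h, with a marker for each line and duration, cytosolic genes in the upper and mitochondrial genes in the lower block. PARS2 (-3.44 to -2.40), YARS2 (-1.67 to -1.0) and MARS2 (-1.80 to -0.70) lie farthest left, and VARS2 (0.80 to 1.01) lies farthest right on average. All values are relative to the typical gene. Under ERCC scaling 17 of 19 called synthetase genes keep their sign in Kelly at 3 days and 6 of 18 at 6 days. In NGP 9 of 26 and 15 of 21 do. The values of VARS1, VARS2 and TARS3 are among those that turn negative, in 2 or more of the 4 comparisons.

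The 3 mRNAs lost fastest on average in DMSO were all mitochondrial: PARS2 (proline, mean log2 change -2.97), YARS2 (tyrosine, -1.40) and MARS2 (methionine, -1.29). YARS2 went from 41.2 and 34.6 CPM to 14.8 and 9.0 CPM in Kelly at 3 days, and from 25.2 and 33.7 to 12.4 and 7.48 CPM at 6 days. In NGP it went from 19.3 and 26.4 to 9.20 and 8.44 CPM at 3 days, and from 23.2 and 21.4 to 8.08 and 14.3 CPM at 6 days. No 6 h library reached a 0 h library, and the changes were called in all 4 comparisons, from -1.67 ± 0.29 (adjusted p = 2.69e-07) to -1.0 ± 0.27 (adjusted p = 0.00197), the last lost in 1 of 4 fits without 1 library.

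MARS2 went from 16.5 and 21.7 to 7.12 and 7.24 CPM in Kelly at 3 days and from 27.4 and 29.3 to 8.94 and 7.28 CPM at 6 days. In NGP it went from 20.4 and 22.8 to 11.7 and 6.39 CPM at 3 days and from 22.4 and 25.3 to 11.7 and 17.7 CPM at 6 days. All groups were apart, but the last change missed the threshold at -0.70 ± 0.30 (adjusted p = 0.0621). PARS2 was thinly counted, with 0 to 170 fragments per library in Kelly and 0 to 225 in NGP. It went from 9.21 and 6.48 to 1.22 and 0.211 CPM in Kelly at 3 days, and from 8.05 and 9.29 to 0.740 and 2.02 CPM at 6 days. In NGP it went from 10.8 and 6.56 to 1.10 and 2.20 CPM at 3 days, and from 12.2 and 13.2 to 0.240 and 2.25 CPM at 6 days. Its changes of -2.40 to -3.44 were called in all 4, and leaving out 1 library lost the call in 5 of 16 fits. HARS2, the mitochondrial histidine enzyme, was lower in all 4 too, by -0.79 to -0.94, and 6.99% of its exon bases are shared with HARS1 and ZMAT2.

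At the slow end stood VARS2 (mean 0.91), TARS3 (0.79) and VARS1 (0.75). VARS2 went from 28.4 and 34.7 to 59.0 and 67.8 CPM in Kelly at 3 days and from 27.9 and 26.6 to 45.9 and 48.7 CPM at 6 days. In NGP it went from 30.6 and 31.9 to 45.2 and 72.6 CPM at 3 days and from 38.0 and 25.2 to 53.6 and 65.9 CPM at 6 days. Each 6 h library exceeded each 0 h library, and the changes of 0.80 to 1.01 were called in all 4, although under ERCC scaling they were -0.48 in Kelly and -0.14 in NGP at 6 days.

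VARS1 went from 373 and 425 to 707 and 660 CPM in Kelly at 3 days and from 366 and 355 to 624 and 621 CPM at 6 days. In NGP it went from 302 and 287 to 475 and 480 CPM at 3 days and from 280 and 309 to 465 and 517 CPM at 6 days. The groups were far apart, with changes of 0.70 to 0.79 called in all 4, and -0.49, -0.11 and -0.32 under ERCC scaling in Kelly at 6 days and NGP at 3 and 6 days. TARS3 went from 2.16 and 1.31 to 2.95 and 4.43 CPM in Kelly at 3 days and from 3.03 and 2.31 to 4.57 and 8.09 CPM at 6 days. In NGP it went from 43.9 and 43.1 to 58.8 and 68.6 CPM at 3 days and from 39.9 and 43.0 to 43.1 and 58.3 CPM at 6 days. Only the NGP change at 3 days was called (0.55 ± 0.17, adjusted p = 0.00808, lost in 2 of 4 fits without 1 library), and the 2 NGP values were -0.26 and -0.77 under ERCC scaling.

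Across both treatments, lines and durations, KARS1 (lysine), LARS1, QARS1, VARS1 and VARS2 were called higher after 6 h in all 8 comparisons, relative to the typical gene. Under ERCC scaling 0 synthetase genes were called higher in Kelly in DMSO at 6 days and in NGP in DMSO at 3 days. The same held for STM2457 in both lines and durations. On the TMM scale FARSA, the catalytic subunit of the phenylalanine enzyme, was called lower in all 8. FARSB, the other subunit, was called higher in 3 of the 4 DMSO comparisons and in none in STM2457, but its decay difference between the treatments was not called in any of the 4 (-0.28 to -0.11, smallest adjusted p = 0.60). FARSA was also lower between 3 and 6 h in 7 of the 8: its change was -0.86 ± 0.16 in Kelly at 3 days in DMSO (adjusted p = 1.46e-05) and -0.91 ± 0.16 in STM2457 (adjusted p = 5.82e-06). RARS1 was lower from 3 to 6 h in STM2457 in all 4 comparisons, with changes of -0.72, -0.50, -0.68 and -0.68. In DMSO it was lower in NGP, by -0.37 (adjusted p = 0.0431) and -0.76 (adjusted p = 2.24e-06) at 3 and 6 days. Its Kelly values in DMSO of -0.37 (adjusted p = 0.135) and -0.35 (adjusted p = 0.226) were not called. The difference between the treatments from 3 to 6 h was not tested, and the RARS1 decay difference from 0 to 6 h was not called in any of the 4.

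A difference between STM2457 and DMSO in the change after actinomycin D was called for synthetase genes in NGP at 6 days. It rests on the DMSO libraries that stood apart. With DMSO of 3 days in their place, 1 synthetase gene was called lower and 0 higher. The decay difference is the change from 0 to 6 h in STM2457 minus that in DMSO, so a positive value means less loss under STM2457. No synthetase gene was called in Kelly at 3 or 6 days or in NGP at 3 days, where edgeR called 0.221%, 0.424% and 0.703% of all genes, with 4, 6 and 3 at an unadjusted p under 0.05. DESeq2 called 1 lower in Kelly at 6 days and none in the other 2. Under ERCC scaling 15 were called lower in Kelly at 3 days and 27 higher at 6 days, where the median of all genes moved to -0.37 and 0.70. In NGP at 6 days 11 were higher and 1 lower, where 1.36% and 1.18% of all genes were. At 3 h in place of 6 h no synthetase gene was called in any comparison. In the order Kelly at 3 and 6 days, then NGP, edgeR called 0.0955%, 0.0358%, 0.0205% and 0.075% of all genes. In the same order, 1, 1, 1 and 0 synthetase genes had an unadjusted p under 0.05. The NGP difference at 6 days uses the same DMSO 0 h libraries as the STM2457 comparison above and is not separate support.

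**Figure D5:**
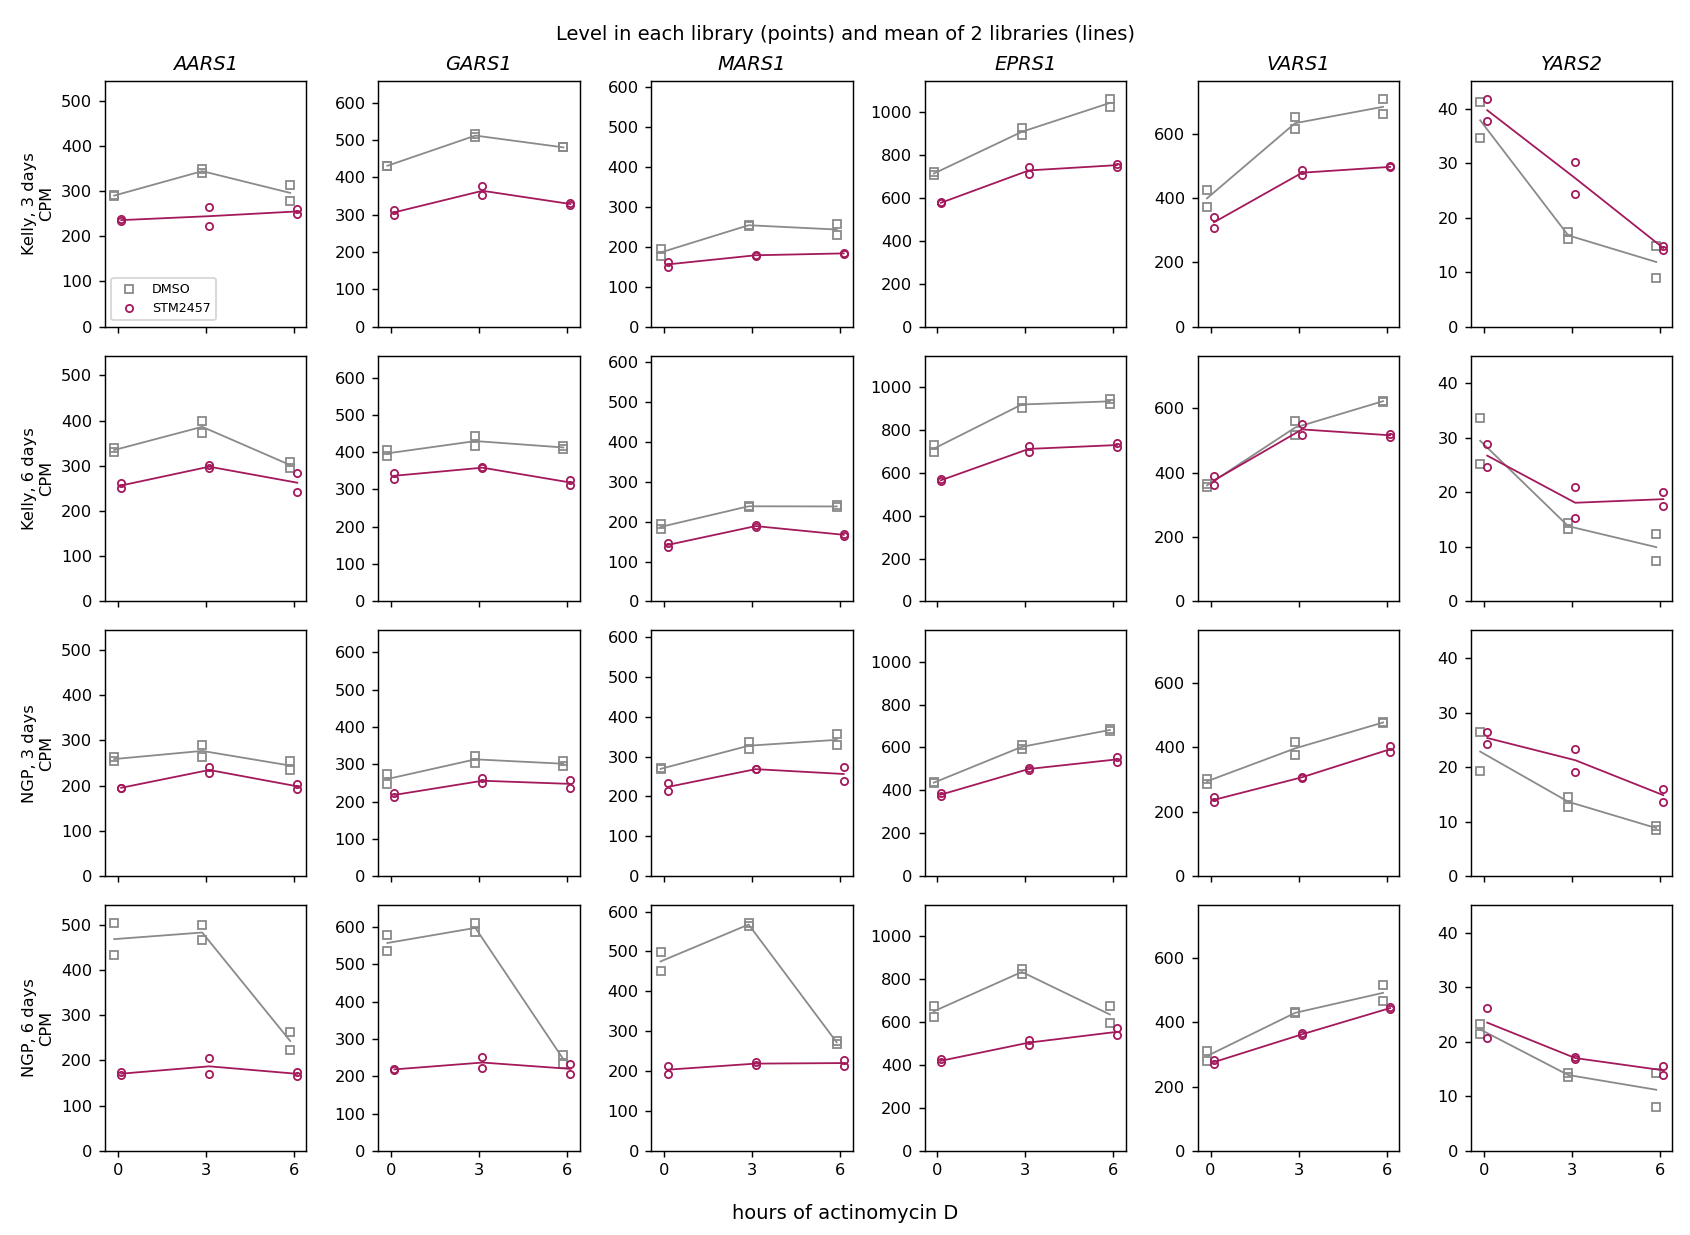
CPM of AARS1, GARS1, MARS1, EPRS1, VARS1 and YARS2 in every library at 0, 3 and 6 h of actinomycin D, in rows by line and duration, squares for DMSO and circles for STM2457, with lines through the means of 2 libraries. In NGP at 6 days the DMSO values of AARS1, GARS1 and MARS1 stay high to 3 h and drop by 6 h, GARS1 from 585 and 610 CPM to 234 and 257 CPM, while STM2457 values stay near their start.

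GARS1 had 536 and 578 CPM at 0 h, 585 and 610 CPM at 3 h and 234 and 257 CPM at 6 h in NGP in DMSO for 6 days. In STM2457 it had 221 and 216 CPM, 251 and 222 CPM, and 207 and 233 CPM. The DMSO libraries stood far above STM2457 at 0 and 3 h and just above it at 6 h. Its decay difference was 1.19 ± 0.11 (adjusted p = 5.15e-14).

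MARS1 had 451 and 499 CPM, 571 and 565 CPM, and 277 and 268 CPM at 0, 3 and 6 h in DMSO, and 193 and 214, 223 and 214, and 212 and 228 CPM in STM2457, a decay difference of 0.91 ± 0.11 (adjusted p = 8.31e-10). AARS1 had 433 and 503, 500 and 465, and 224 and 262 CPM in DMSO, and 174 and 167, 204 and 169, and 174 and 166 CPM in STM2457, a difference of 0.95 ± 0.12 (adjusted p = 9.13e-09). Both genes, like GARS1, dropped in DMSO between 3 and 6 h: by -1.06 ± 0.08 (adjusted p = 1.3e-19) for MARS1, -0.99 ± 0.08 (adjusted p = 3.53e-16) for AARS1 and -1.29 ± 0.08 (adjusted p = 1.67e-23) for GARS1. In that interval in DMSO 15 synthetase genes were lower and 2 higher, beside 7.8% and 6.1% of all genes, and in STM2457 4 and 4, beside 4.83% and 2.84%. In NGP in DMSO for 3 days, 2 were lower and 6 higher in that interval, beside 4.55% and 4.05%, and the changes of MARS1, AARS1 and GARS1 were 0.06, -0.18 and -0.06, none called.

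SARS1 had 327 and 350, 390 and 382, and 192 and 197 CPM in DMSO, and 225 and 218, 270 and 262, and 214 and 219 CPM in STM2457, a decay difference of 0.77 ± 0.11 (adjusted p = 4.34e-07). TARS1 had 357 and 331, 368 and 384, and 246 and 231 CPM in DMSO, and 192 and 188, 201 and 231, and 202 and 221 CPM in STM2457, a difference of 0.68 ± 0.12 (adjusted p = 1.93e-05). WARS1 had 135 and 118, 130 and 127, and 90.4 and 85.0 CPM in DMSO, and 56.8 and 63.3, 76.1 and 69.3, and 74.7 and 85.1 CPM in STM2457, a difference of 0.94 ± 0.17 (adjusted p = 7.49e-05). For SARS1 the order of the treatments turned by 6 h, with DMSO below STM2457, while TARS1 stayed higher in DMSO and the WARS1 groups overlapped. CARS1, EPRS1, YARS1, NARS1 and LARS1 were the other 5, with differences of 0.28 to 1.34. Without 1 library, the calls of LARS1, NARS1 and YARS1 were lost in 6, 4 and 1 of 8 fits.

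The 1 gene with faster loss under STM2457 was SARS2, the mitochondrial serine enzyme (-2.69 ± 0.61, adjusted p = 0.00332, lost in 1 of 8 fits without 1 library). It had 10.96 and 10.3 CPM at 0 h and 3.41 and 1.22 CPM at 6 h in STM2457, and 9.27 and 5.91 CPM at 0 h and 13.5 and 8.55 CPM at 6 h in DMSO. It was thinly counted in NGP, with 13 to 280 fragments per library. AC011455.2 and MRPS12 share 57.0% of its exon bases, so its counts depend on how reads there were assigned, which was not tested. In Kelly its decay difference pointed the other way, at 1.26 ± 0.76 (adjusted p = 0.71) and 1.96 ± 0.76 (adjusted p = 0.388).

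With the NGP DMSO libraries of 3 days as control, none of the 11 positive decay differences of NGP at 6 days was called: GARS1 was at -0.20 ± 0.11 (adjusted p = 0.503), MARS1 at -0.23 ± 0.11 (adjusted p = 0.4), AARS1 at 0.08 ± 0.12 (adjusted p = 0.883) and WARS1 at -0.46 ± 0.17 (adjusted p = 0.235). Of the 11, 10 turned negative. SARS2 was the 1 gene still called, at -2.65 ± 0.62 (adjusted p = 0.0141), where 0.437% of all genes were lower and 0.355% higher. IARS1 came next at -0.37 ± 0.10 (adjusted p = 0.0506).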

How the data were processed

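Poly(A) RNA of 48 libraries was compared: 2 lines, 2 treatments, 2 durations and 3 times of actinomycin D, with 2 libraries in each of 24 groups. The authors deposited unnormalized counts of fragments for each gene, made with featureCounts 1.5.3 on GENCODE 33 protein-coding genes and ERCC sequences, per the file headers. The submitters' processing notes also name FastQC 0.11.5, Trimmomatic 0.36 and HISAT2 2.1.0, and a strand option is not given in the sources used here.

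Counts were tested with edgeR 4.0.16 (quasi-likelihood F test, TMM scaling, R 4.3.3) in 1 fit of 24 libraries per line and 1 joint fit of 48 for differences between lines. ERCC rows were kept out of library sizes and tests. Genes passed edgeR's filter by group (minimum count 10, minimum total 15), which left 16759 genes in Kelly, 14661 in NGP and 17343 in the joint fit. P-values were Benjamini-Hochberg adjusted over all of these with a threshold of 0.05, and errors of log2 changes are the change divided by the square root of F. CPM are on TMM-scaled library sizes. The scripts were tested on simulated counts.

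The members and lists were chosen with earlier results of these data known, and the amino acid response list was written after they were seen. Comparisons of 6 with 3 days, of 6 with 3 h, of levels between lines and with DMSO of 3 days as control were added after seeing the data. Values per library are given for up to 12 members called in the STM2457 comparisons at 0 h, ordered by the number of comparisons called and then by adjusted p. They are also given for up to 6 members called in a decay difference and for the 3 of highest and 3 of lowest mean change after actinomycin D in DMSO. Up to 4 called genes of each other list are named. For 2 members no values of their own are reported here or drawn, and counts, medians and sums include them. Alternatives were DESeq2 1.42.0, limma-voom (limma 3.58.1), RLE size factors, ERCC scaling, no filter, a replicate block, fits of 1 duration, 3 h in place of 6 h and leaving out each library. Depth limits the precision of thinly counted genes, and no interval beyond the fitted errors is given.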

Additional observations from a re-analysis of the deposited data

Results flagged for a closer look

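Synthetase genes whose STM2457 effect at 0 h differed between durations or lines, by the test of that difference, are listed with its log2 value. All of them rest on the NGP libraries in DMSO for 6 days at 0 h, which stood apart from the other NGP libraries. Between 6 and 3 days in NGP, the effect differed by -1.58 for CARS1, -1.09 for GARS1, -1.05 for AARS1 and -0.96 for MARS1. It differed by -0.88 for WARS1, -0.75 for YARS1, -0.61 for TARS1 and -0.54 for NARS1. For IARS1 the value was -0.53, for SARS1 -0.52 and for EPRS1 -0.43.

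Between NGP and Kelly at 6 days, the effect differed by -1.50 for CARS1, -1.11 for WARS1, -1.10 for GARS1 and -1.05 for AARS1. It differed by -0.80 for MARS1, -0.68 for TARS1 and -0.59 for NARS1. For SARS1 the value was -0.49 and for IARS1 -0.47. The amino acid response genes, summed, stood at 4301 and 4478 CPM in those DMSO libraries and at 1948 and 1961 CPM in DMSO of 3 days, and their part in the differences was not tested.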

How the results depend on the processing

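Counts of synthetase genes called stayed within 1.5 times in 24 of 28 comparisons with DESeq2, 27 with RLE size factors, 25 with limma-voom, 26 without the filter, 18 of 18 in fits of 1 duration and 7 of 28 under ERCC scaling. DESeq2 called 8 for STM2457 in Kelly at 3 days, 3 for 6 against 3 days in Kelly in STM2457, 1 for the decay difference in Kelly at 6 days and 2 for the duration difference in Kelly. limma-voom called 1 for 6 against 3 days in Kelly in DMSO, 1 in NGP in STM2457 and 2 for STM2457 in NGP at 3 days. RLE size factors called 1 for 6 against 3 days in NGP in STM2457, and without the filter the counts were 0 in Kelly and 1 in NGP in STM2457.

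Under ERCC scaling, 6 against 0 h of actinomycin D in DMSO called 16 and 37 genes in Kelly (3 and 6 days) and 24 and 36 in NGP, and in STM2457 31 and 22 in Kelly and 25 and 26 in NGP. For 6 against 3 h in NGP at 6 days it called 33 in DMSO and 16 in STM2457. For 6 against 3 days it called 19 in Kelly in DMSO, 11 in Kelly in STM2457 and 16 in NGP in STM2457, the last 16 all lower. For the decay difference it called 15 in Kelly at 3 days and 27 at 6 days, and for the duration difference 24 in Kelly. It called 1 for the line difference at 3 days and 22 for the level between lines at 3 days, 18 higher and 4 lower. For STM2457 it called 11 in Kelly at 3 days, all higher, 14 in Kelly at 6 days and 1 in NGP at 3 days. After 6 h in DMSO, signs were followed singly only for the 3 genes of highest and 3 of lowest mean change. Of these, VARS2 (-0.48) and VARS1 (-0.49) turned in Kelly at 6 days. For NGP, VARS1 (-0.11) and TARS3 (-0.26) turned at 3 days, and VARS2 (-0.14), VARS1 (-0.32) and TARS3 (-0.77) at 6 days. Of all synthetase genes called under TMM, 17 of 19 and 6 of 18 kept their sign in Kelly (3 and 6 days). For NGP, 9 of 26 and 15 of 21 did. Between 3 and 6 h in NGP at 6 days VARS1 (-0.40) and KARS1 (-0.35) turned in DMSO and LARS1 (-0.0494) in STM2457, between 3 and 6 days VARS1 (-0.10) in NGP in STM2457, and for STM2457 in Kelly at 3 days EPRS1 (0.0945), VARS1 (0.10) and AARS1 (0.10). The cause was not tested.

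With DMSO of 3 days as control in NGP at 6 days, the counts were 6 for STM2457, 1 for the decay difference and 2 for the line difference. The decay differences that turned were YARS1 (-0.33), SARS1 (-0.0895), EPRS1 (-0.24), TARS1 (-0.10), LARS1 (-0.0566), GARS1 (-0.20), CARS1 (-0.16), MARS1 (-0.23), WARS1 (-0.46) and NARS1 (-0.41), and the line differences TARS1 (0.0464), GARS1 (0.12), MARS1 (0.0108), WARS1 (0.0178) and NARS1 (0.11). At 3 h in place of 6 h the decay difference in NGP at 6 days called 0, and YARS1 (-0.25), EPRS1 (-0.0929), LARS1 (-0.0262), MARS1 (-0.15) and NARS1 (-0.24) turned.

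Leaving out 1 library at a time, 6 against 0 h called 15 to 18 and 12 to 16 in Kelly and 19 to 22 and 19 to 21 in NGP in DMSO, and 12 to 14, 11 to 12, 15 to 17 and 11 to 15 in STM2457. STM2457 at 0 h called 3 to 4 and 3 to 5 in Kelly and 1 to 3 and 13 to 14 in NGP. For 6 against 3 days the counts were 0 to 2 in Kelly and 13 to 14 in NGP in DMSO, and 0 to 1 in both in STM2457. For 6 against 3 h in NGP at 6 days they were 14 to 16 in DMSO and 6 in STM2457. The decay difference in NGP at 6 days called 10 to 13, the duration difference 0 to 1 in Kelly and 10 to 11 in NGP, the line difference at 6 days 7 to 11, and levels between lines 15 to 16 and 15 to 18. Of 652 such fits of single genes, 93 lost the call and 0 turned. Same-numbered libraries of DMSO and STM2457 did not deviate together (r of -0.0245 to 0.0286 over 12 pairs of groups), and a replicate block called 5, 6, 6 and 14 genes for STM2457 and moved none of the 28 counts by over 1.5 times. Depth limits PARS2, SARS2, FARS2 and, in Kelly, TARS3.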
